A study of Homo sapiens with 4 samples.

Results

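The genes described here belong to the NRF2 antioxidant and glutathione response: NFE2L2, KEAP1, NQO1, HMOX1, GCLC, GCLM, TXNRD1, SRXN1, GSTP1 and GPX2. These 10 genes were taken by gene name from the 26485 names in the deposited tables, and each of them stood on 1 row at the same position in every table. SW1736 and 8505C are established cell lines from human anaplastic thyroid cancer (ATC), an undifferentiated thyroid tumour. Wild-type (wt) cells of both lines were compared with their paclitaxel-resistant derivatives, SW1736-PTX and 8505C-PTX, which had been raised by stepwise exposure to paclitaxel, a taxane that stabilizes microtubules, from 1 nM up to 1.5 µM over 6 months. The resistant cells then grew in medium that still held 1.5 µM of the drug, while no paclitaxel is given for the wt cells, so that past selection and present exposure cannot be told apart. The mRNA of each condition was sequenced once, 4 libraries in all, and 1 resistant derivative stood for each line.

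NRF2, the protein of NFE2L2, is a transcription factor that KEAP1 binds in the cytoplasm and hands to a CUL3 ubiquitin ligase for degradation. Oxidants and electrophiles modify cysteines of KEAP1, NRF2 then escapes destruction, pairs with a small MAF protein in the nucleus and binds the antioxidant response element in the promoters and enhancers of its targets. These targets make glutathione, reduce thioredoxin and quinones, break down heme and supply NADPH, and they are known in cancer for tolerance of oxidative stress and of drugs. Because NRF2 is controlled largely through the stability of its protein, its mRNA level alone does not give its activity.

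The sequences below show where the core of the antioxidant response element, TGACNNNGC, lay near the start sites of the members, since NRF2 binds this element. The members themselves were taken by gene name and not by this element. It was searched on both strands of RefSeq promoters (GRCh38.p14, the same build as the hg38 of the tables), each running from 250 bases before to 50 bases after a start site. Of the 10 members, 9 were found in the promoter table, with 12 start sites, and HMOX1 was the other. The core occurred in 6 of these 12 promoters, 8 times in 5 members, and in 13.3% of all 35116 promoters. Each match is given 5′ to 3′ on the strand that reads the core, with the core in capitals and 10 bases on either side.
GCLM: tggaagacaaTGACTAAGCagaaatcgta
KEAP1, match nearer the start site: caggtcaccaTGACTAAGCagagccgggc
KEAP1, match farther from it: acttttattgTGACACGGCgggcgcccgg
GSTP1: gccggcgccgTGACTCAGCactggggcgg
TXNRD1, upstream start site: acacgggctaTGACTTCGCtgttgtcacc
TXNRD1, across the upstream start site: ctgtgggaacTGACGGAGCcgaaggacgc
TXNRD1, downstream start site: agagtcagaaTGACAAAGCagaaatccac
GPX2: atccccaggaTGACTTAGCaaaaacaggt

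GCLM and KEAP1 held the same core, so that the 8 matches had 7 different cores. The core of GSTP1 (chr11:67583736-67583764, plus strand) also held TGANTCA, a motif of AP-1 that occurred in 7.71% of all promoters, and the AP-1 motif was in none of the other 7 cores. The GCLM match (chr1:93909446-93909474, plus strand) began 34 bases before the start site, and the KEAP1 matches (chr19:10502784-10502812, plus strand, and chr19:10502807-10502835, minus strand) 31 and 54 bases before the downstream of 2 start sites. These windows and that of GSTP1 lay outside the exons of the MANE Select transcript, the reference transcript of a gene, but over exons of other GENCODE transcripts. The TXNRD1 windows were chr12:104215670-104215698 (plus strand), outside any exon of TXNRD1, chr12:104215761-104215789 (minus strand), over the first MANE exon, and chr12:104286920-104286948 (minus strand), over an exon of another transcript. The GPX2 window (chr14:64942849-64942877, plus strand) lay outside any GENCODE exon of GPX2, before the GENCODE start of the gene but within the longer span that the deposited tables give it. Exons of other genes were not looked at for any window, and CHURC1-FNTB, on the plus strand, overlaps GPX2 in the deposited tables. A match is a description of letters and no evidence of binding, and the promoters of NFE2L2, NQO1, GCLC and SRXN1 did not hold these letters in the stretch searched.

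From the ratio of coverage to FPKM, the libraries held between 43.5 and 57.9 M aligned reads of 75 bp, with the deeper library of each pair from PTX cells. FPKM is the number of aligned fragments scaled for the length of the gene and for the depth of the library, so its levels can be set side by side between genes. Changes are log2((a + 0.1)/(b + 0.1)) of the FPKM values, which understates the change of low genes. A gene was compared when it was above 0.5 FPKM in 1 or both libraries of a pair, and called up- or down-regulated when its change lay beyond 1.5 or -1.5. With 1 library per condition there is no replicate check within a line, and a call is a rule of size only. Intervals given for the members are exact 95% binomial intervals of a ratio, from reads estimated with the length of the MANE Select transcript, and they cover counting error only.

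The library labelled SW1736-PTX stood apart from its parental line. Across 14692 genes, which are not independent replicates, Pearson's r of log2(FPKM + 0.1) was 0.767 between SW1736-PTX and SW1736 wt, 0.873 between SW1736-PTX and 8505C wt, and 0.933 between the PTX libraries. Among the thyroid lineage factors, PAX8 had 38.2 FPKM in SW1736 wt and between 0.123 and 0.206 in the other libraries. NKX2-1 was listed at 0 in SW1736 wt and lay between 30.5 and 39.0 FPKM in the other libraries. FOXE1 had 26.6 FPKM in SW1736 wt and between 0.0443 and 0.512 elsewhere. On these genes SW1736-PTX was therefore like 8505C and unlike the line it is labelled with, and the change of each member compared in SW1736 is also given against 8505C wt, as are the pathway calls that depend on the reference. A change found in both lines is thus one found in both pairs as labelled. Whether these pairs stand for separate lines was not tested. TG, TSHR and SLC5A5, genes of the differentiated thyrocyte, were at or near 0 throughout. Of 4 epithelial markers, KRT8 and KRT18 were above 250 FPKM in every library and EPCAM and CDH1 were at most 0.0806. The fibroblast markers DCN, LUM and PDGFRA stayed below 0.5, as did the leukocyte markers PTPRC and CD3E. CD14, also on the leukocyte list, was at 0.894 (wt) and 0.707 FPKM (PTX) in SW1736 and at 0.576 (wt) and 4.50 FPKM (PTX) in 8505C. The endothelial gene CDH5 was at 55.9 FPKM in 8505C wt, 4.54 in 8505C-PTX and below 0.3 in the SW1736 libraries. PECAM1 and VWF, the other markers on the endothelial list, were at most 0.281 and 0.086 FPKM in any library. The part of CD14 or CDH5 in any result was not tested.

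NFE2L2 (chromosome 2, 177230303 to 177265131, minus strand, 5 exons in its MANE transcript) was higher in both PTX libraries than in both wt libraries. It was at 29.1 (wt) and 48.3 FPKM (PTX) in SW1736 and at 33.5 (wt) and 55.6 FPKM (PTX) in 8505C. The ratio of PTX to wt was 1.66 in SW1736 (interval 1.59 to 1.73) and 1.66 in 8505C (1.60 to 1.73), a log2 fold change of 0.73 in each, which did not reach the call. With 8505C wt as the reference, NFE2L2 in SW1736-PTX was at 0.53.

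KEAP1, the adaptor that holds NRF2 for degradation (chromosome 19, 10486120 to 10503378, minus strand, 6 exons), was highest in SW1736 wt. Its level was 57.5 (wt) and 34.8 (PTX) FPKM in SW1736 and 26.4 (wt) and 26.0 (PTX) in 8505C. The PTX to wt ratio was 0.605 in SW1736 (0.584 to 0.627) and 0.986 in 8505C (0.939 to 1.04), with log2 fold changes of -0.72 and -0.02. Against 8505C wt the value of SW1736-PTX turned to 0.40. The ratio of KEAP1 to NFE2L2 FPKM within a library was 1.98 (wt) and 0.721 (PTX) in SW1736 and 0.789 (wt) and 0.468 (PTX) in 8505C, so it was lower in the PTX library of each pair, and SW1736 wt was the one library with more KEAP1 than NFE2L2.

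**Figure D1:**
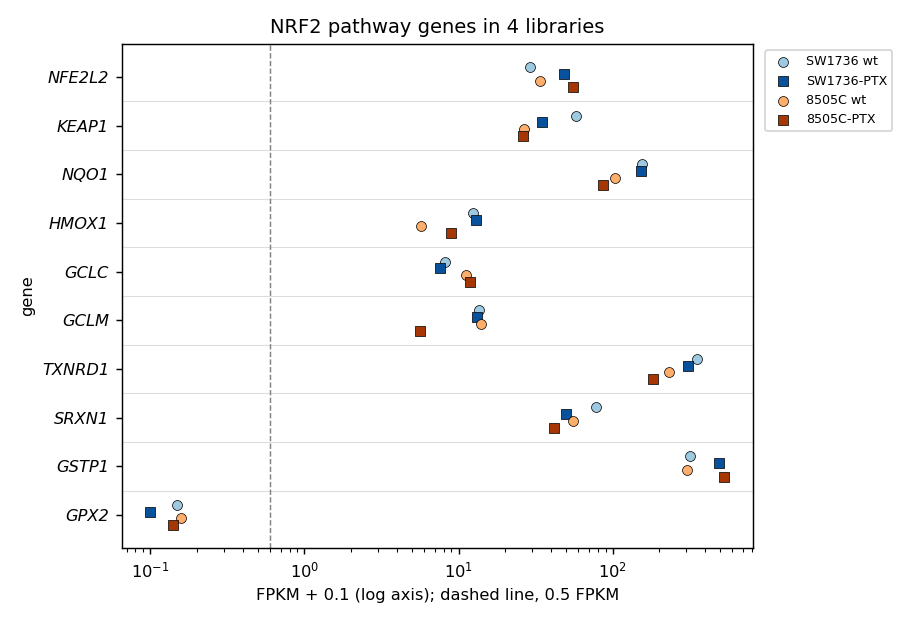
FPKM + 0.1 of the 10 members (log axis) in the 4 libraries, 1 point per library, circles for wt and squares for PTX, with no error bars because each condition has 1 library. NFE2L2 and GSTP1 are higher in both PTX libraries than in both wt libraries, GCLM is low in 8505C-PTX (5.55 FPKM), and GPX2 lies left of the dashed line at 0.5 FPKM.

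The subunits of glutamate-cysteine ligase, which makes the first and rate-limiting step of glutathione synthesis, did not go together. GCLC, the catalytic subunit (chromosome 6, 53497341 to 53545129, minus strand, 16 exons), was at 8.07 (wt) and 7.52 FPKM (PTX) in SW1736 and at 11.0 (wt) and 11.8 FPKM (PTX) in 8505C. All 4 values lay within a range of 1.57-fold, with both SW1736 libraries below both 8505C libraries. The log2 fold change of GCLC was -0.10 in SW1736 and 0.10 in 8505C, and the latter went to -0.01 once the median of all genes was set to 0. Against 8505C wt, GCLC in SW1736-PTX was at -0.55, the lowest value of any member in that comparison.

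GCLM, the modifier subunit that raises the activity of GCLC (chromosome 1, 93885200 to 93909598, minus strand, 7 exons), had the largest difference of any member in either line. It had 13.5 (wt) and 13.0 FPKM (PTX) in SW1736 and 13.8 in 8505C wt, but 5.55 in 8505C-PTX. The ratio in 8505C was 0.402 (0.377 to 0.428), a log2 fold change of -1.30, which was below the values of all but 8.18% of the genes compared and still short of the call. In SW1736 the log2 fold change was -0.05, and against 8505C wt it was -0.09. The ratio of GCLC to GCLM FPKM within a library was 0.597 (wt) and 0.578 (PTX) in SW1736 and 0.799 (wt) and 2.13 (PTX) in 8505C, the one library with less GCLM than GCLC.

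GSTP1, a glutathione S-transferase that conjugates glutathione to electrophiles (chromosome 11, 67583595 to 67586653, plus strand, 7 exons), was one of the most abundant mRNAs in every library. It was at 317 (wt) and 492 FPKM (PTX) in SW1736 and at 304 (wt) and 528 FPKM (PTX) in 8505C, above at least 98.5% of the genes detected over 0.5 FPKM in each. Both PTX libraries were above both wt libraries, with ratios of 1.55 in SW1736 (1.52 to 1.59) and 1.74 in 8505C (1.70 to 1.78). The log2 fold changes were 0.64 and 0.80, and 0.69 for SW1736-PTX against 8505C wt.

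GPX2, a glutathione peroxidase known best from the gut epithelium (chromosome 14, 64939152 to 64942905, minus strand, 2 exons), was not detectable at this depth. It was listed at 0.0483 (wt) and 0 FPKM (PTX) in SW1736 and at 0.0577 (wt) and 0.0392 FPKM (PTX) in 8505C, each below the FPKM that 3 reads would give, 0.0562 to 0.0747. It passed the FPKM limit in no comparison and no fold change is given.

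NQO1, a quinone reductase and the classical NRF2 target (chromosome 16, 69709401 to 69726668, minus strand, 6 exons), hardly differed between PTX and wt cells. Its level was 154 FPKM in both SW1736 libraries, 104 in 8505C wt and 86.9 in 8505C-PTX. The ratio was 0.995 in SW1736 (0.976 to 1.02), so that only 0.486% of the genes compared had a smaller change, and 0.838 in 8505C (0.817 to 0.860). SW1736-PTX had more NQO1 than either 8505C library, with a log2 difference of 0.57 from 8505C wt and of 0.82 from 8505C-PTX.

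HMOX1, the inducible heme oxygenase (chromosome 22, 35381067 to 35394214, plus strand, 5 exons), was at 12.4 (wt) and 12.9 FPKM (PTX) in SW1736 and at 5.63 (wt) and 8.87 FPKM (PTX) in 8505C. The SW1736 libraries were above the 8505C libraries, and the ratio of PTX to wt was 1.05 in SW1736 (0.960 to 1.14) and 1.58 in 8505C (1.39 to 1.79). The log2 fold changes were 0.06 and 0.65. Against 8505C wt, SW1736-PTX reached 1.19, the highest value of any member in that comparison.

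TXNRD1, which uses NADPH to reduce thioredoxin (chromosome 12, 104215779 to 104350307, plus strand, 17 exons), and SRXN1, which restores overoxidized peroxiredoxins (chromosome 20, 646624 to 653370, minus strand, 2 exons), were lower in the PTX library of both pairs. TXNRD1 was at 354 (wt) and 307 FPKM (PTX) in SW1736 and at 231 (wt) and 182 FPKM (PTX) in 8505C, with ratios of 0.866 (0.857 to 0.876) and 0.788 (0.777 to 0.799). SRXN1 was at 77.8, 49.8, 55.1 and 41.4 FPKM in that order, with ratios of 0.640 (0.621 to 0.660) and 0.753 (0.726 to 0.781). None of these differences reached the call, the log2 fold changes being -0.21 and -0.34 for TXNRD1 and -0.64 and -0.41 for SRXN1. Against 8505C wt, SW1736-PTX was at 0.41 for TXNRD1 and at -0.14 for SRXN1, so the direction for TXNRD1 in SW1736 rested on the library used as parental line. EID3, which lies within TXNRD1 on the same strand, was below 0.7 FPKM throughout.

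Of the 9 members compared, 0 were called in SW1736-PTX against SW1736 wt, where 25.9% of 14202 genes were called, and 0 in 8505C-PTX against 8505C wt, where 20.9% of 13794 genes were called. Most members were abundant, and all 9 were above 5 FPKM in every library. Among genes above 5 FPKM in at least 1 library of the pair, a limit set after the values were seen, 19.4% were called in SW1736 and 15.4% in 8505C. The median size of the log2 fold change, regardless of sign, was 0.21 for the members and 0.78 for all genes in SW1736, and 0.41 and 0.68 in 8505C. In SW1736, 3 members were above 0 and 6 below, with a median of -0.05 beside 0.01 for all genes, and in 8505C 4 were above and 5 below, with -0.02 beside 0.11. At a threshold of 1, which 40.4% of the genes passed in SW1736 and 35.5% in 8505C, GCLM in 8505C was the one member called. PTX was also set against wt over both lines in limma, with the cell line as a block, which leaves 1 residual degree of freedom and takes SW1736-PTX as labelled. It called 0 of 9 members and 0% of 14692 genes at an adjusted p under 0.05, while 3131 genes and 0 members had an unadjusted p under 0.05. The members with the lowest adjusted p in limma were GSTP1, with a log2 change of 0.72 ± 0.27 (SE, adjusted p = 0.235), and NFE2L2, with 0.73 ± 0.28 (adjusted p = 0.237). Both were higher in the PTX library of each pair as labelled. In this fit limma draws the SE of a gene toward the spread of other genes, so it does not measure that gene's own spread between the lines. With 9 genes and no replicates, the counts of calls by size are a description of the libraries.

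**Figure D2:**
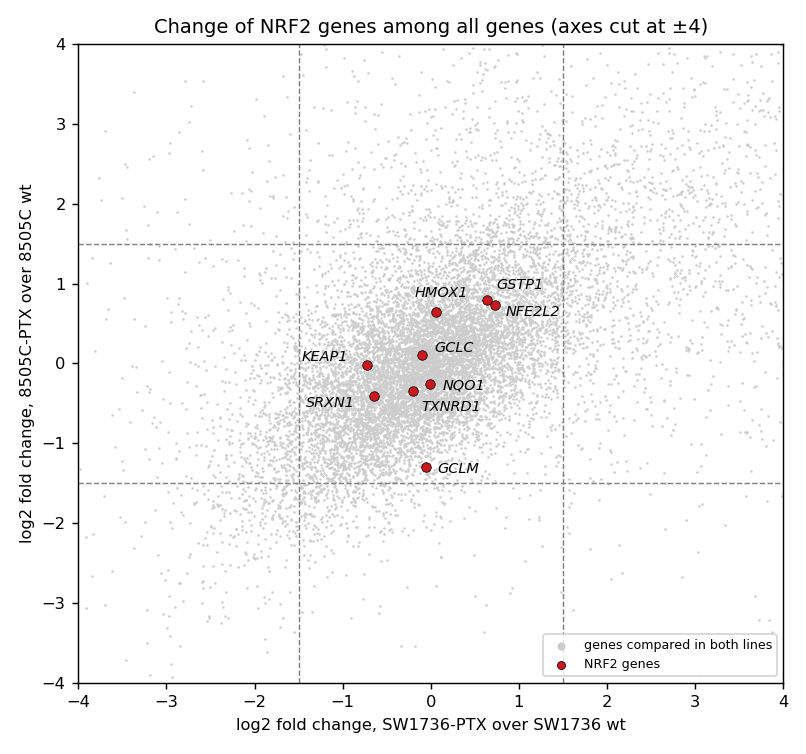
Log2 fold change of PTX over wt in SW1736 (horizontal axis) and in 8505C (vertical axis) for the 13304 genes compared in both lines (grey; 787 of them lie beyond the axes, which end at 4) and for 9 members (red), 1 library per condition. All members lie inside the dashed lines at 1.5 and -1.5, with GCLM nearest to a line at -1.30 in 8505C.

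Between the wt lines, 0 of 9 members differed beyond 1.5, against 17.6% of 13457 genes. KEAP1 and HMOX1 were both lower in 8505C wt, each with a log2 difference of -1.12, and the median over the members was -0.50 beside -0.08 for all genes, with 6 of 9 below 0. Between the PTX libraries, 0 of 9 members differed beyond 1.5, against 7.79% of 13986 genes. The values of SW1736-PTX over 8505C-PTX ran from -0.65 for GCLC to 1.21 for GCLM, and the median size was 0.54 for the members and 0.33 for all genes. With 8505C wt as the reference for SW1736-PTX, again 0 of 9 members were called, against 20.4% of 13824 genes, with 6 members above 0 and a median of 0.41 beside 0.10 for all genes. These comparisons share libraries and are not independent of each other.

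Expression of the genes beside each member was set next to its own change, using up to 10 compared genes on each side. The 20 neighbours of NFE2L2 had a median log2 fold change of -0.98 in SW1736 and 0.19 in 8505C, both below the value of NFE2L2 itself. Those of GSTP1 had 0.44 and 0.88, near the 0.64 and 0.80 of GSTP1. The neighbours of GCLM had -0.37 and -0.30. Of these 20 genes, 4 were called up and 1 down in 8505C, where 15.0% and 5.89% of all genes were. Those of NQO1 had -0.76 in SW1736, where NQO1 had -0.01, and -0.27 in 8505C, where it had -0.25. Whether gains or losses of chromosome segments took part in any of these values was not tested.

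The wider pathway was taken from 9 lists with 121 genes, none of them a member. Of these, 100 genes were compared in SW1736, with 19 up-regulated and 13 down-regulated, or 19.0% and 13.0% beside 15.7% and 10.2% of all genes. In 8505C 94 genes were compared, with 19 up-regulated and 6 down-regulated, or 20.2% and 6.38% beside 15.0% and 5.89%. With 8505C wt as reference, SW1736-PTX had 23 increases and 3 decreases among 95 genes, beside 15.1% and 5.23% of all genes. Of 93 pathway genes compared in both lines, 9 were called up in both (GGT1, GGT5, GGT7, CHAC1, GSTA4, TKT, AKR1C1, AKR1C2 and AKR1C3) and 1, CHAC2, down in both. The share of all genes called alike in both lines was not counted, so these numbers are a description only. Of the 9 genes up in both lines, 7 were also called up against 8505C wt, the others being GGT7 (1.32) and GSTA4 (0.98). Of all 32 pathway genes called in SW1736, 14 were called in the same direction against 8505C wt, 11 fell short of the call, 5 were not compared and 2, GSTO2 and ABCC3, were called in the opposite direction.

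**Figure D3:**
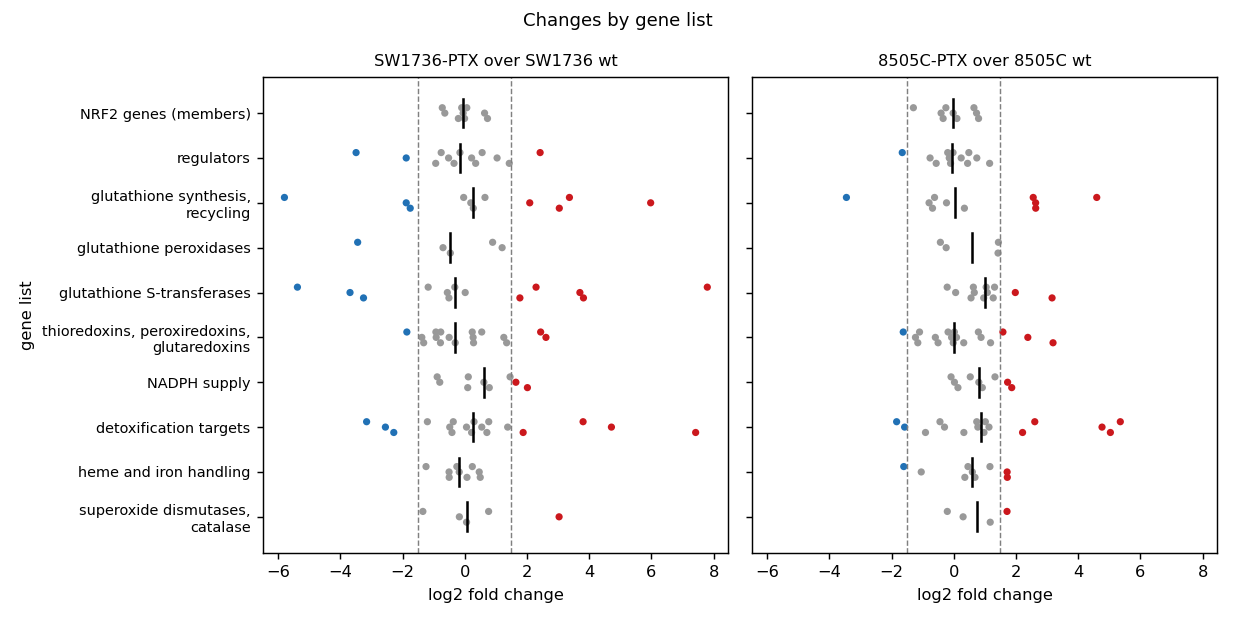
Log2 fold change of every compared gene (points) of the members and of the 9 pathway lists, in SW1736 (left) and 8505C (right), with list medians as black bars and calls beyond 1.5 in red and below -1.5 in blue. All 9 members are grey in both panels, while the list of detoxification targets holds 4 red and 3 blue points in SW1736 and 5 and 2 in 8505C. Points of genes listed at 0 in 1 library depend on the 0.1 FPKM added.

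The aldo-keto reductases AKR1C1, AKR1C2 and AKR1C3, which reduce steroids, prostaglandins and reactive aldehydes and are widely used as NRF2 targets, had the largest increases among the detoxification targets. AKR1C1 was at 0.597 (wt) and 119.5 FPKM (PTX) in SW1736 and at 1.52 (wt) and 66.0 FPKM (PTX) in 8505C, log2 fold changes of 7.42 and 5.35. AKR1C3 was at 4.82, 68.6, 1.45 and 50.7 FPKM in that order (3.80 and 5.03), and AKR1C2 at 0.208, 7.98, 0.134 and 6.28 (4.71 and 4.77). Both PTX libraries were far above both wt libraries for each of them, and against 8505C wt the values of SW1736-PTX were 6.21, 5.11 and 5.47 for AKR1C1, AKR1C2 and AKR1C3. The sequences of these paralogs are close to identical, so the split of reads between them is uncertain. Of 22 detoxification targets, 18 were compared in SW1736, with 4 increases (22.2%) and 3 decreases (16.7%), beside 15.7% and 10.2% of all genes. In 8505C 16 were compared, with 5 increases (31.25%) and 2 decreases (12.5%), beside 15.0% and 5.89%. Against 8505C wt, SW1736-PTX had 10 increases (58.8%) and 1 decrease (5.88%) among 17, beside 15.1% and 5.23%. The list's median in that comparison was 1.71, beside 0.10 for all genes. AKR1B10 had 4.63 FPKM in SW1736 wt and 0.430 in its PTX library, while in 8505C it was listed at 0 in wt and was at 0.508 FPKM in PTX cells. The other calls in SW1736-PTX against SW1736 wt were ABCC2, an efflux pump, up (1.88) and CBR3 and ABCC3 down (-2.28 and -2.55). Those in 8505C were EPHX1, an epoxide hydrolase, up (2.21) and PTGR1 and ABCC4 down (-1.84 and -1.58). ABCC3 had 3.68 (wt) and 0.545 FPKM (PTX) in SW1736 and was listed at 0 in 8505C wt, so that against this library it was higher in SW1736-PTX.

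The genes called among those of glutathione metabolism encode enzymes that break glutathione or its products down. The list itself is largely made up of such enzymes. CHAC1, a cytosolic glutathione-degrading enzyme and a target of the ATF4 stress response, was at 0.710 (wt) and 6.55 FPKM (PTX) in SW1736 and at 1.47 (wt) and 9.65 FPKM (PTX) in 8505C (log2 fold changes 3.04 and 2.63). Its relative CHAC2 moved the other way, with 6.19, 1.61, 9.94 and 0.818 FPKM (-1.88 and -3.45). Among the gamma-glutamyltransferases, which cleave glutathione outside the cell, GGT5 was listed at 0 in SW1736 wt and had 6.19 FPKM in SW1736-PTX, 0.167 in 8505C wt and 6.34 in 8505C-PTX. GGT7, a member of that family, was at 0.466, 5.72, 2.23 and 13.5 FPKM (3.36 and 2.55), and GGT1 stayed low, between 0.0377 and 0.753 FPKM. In all, SW1736 had 4 increases (36.4%) and 3 decreases (27.3%) among 11 genes of glutathione synthesis and recycling, beside 15.7% and 10.2% of all genes. In 8505C there were 4 (40.0%) and 1 (10.0%) among 10, beside 15.0% and 5.89%. The other decreases in SW1736 were GGCT (-1.75, and -1.23 against 8505C wt) and ANPEP (-5.80). Only SW1736 wt held ANPEP above the FPKM limit (7.57), every other library being at most 0.067, so ANPEP was not compared against 8505C wt. The biosynthetic and recycling genes GSS, GSR and SLC7A11, the cystine transporter, were not called, with log2 fold changes of -0.04 and -0.23, 0.27 and -0.62, and 0.19 and -0.80. The list of synthesis and recycling genes had a median of 0.27 in SW1736 and 0.05 in 8505C.

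**Figure D4:**
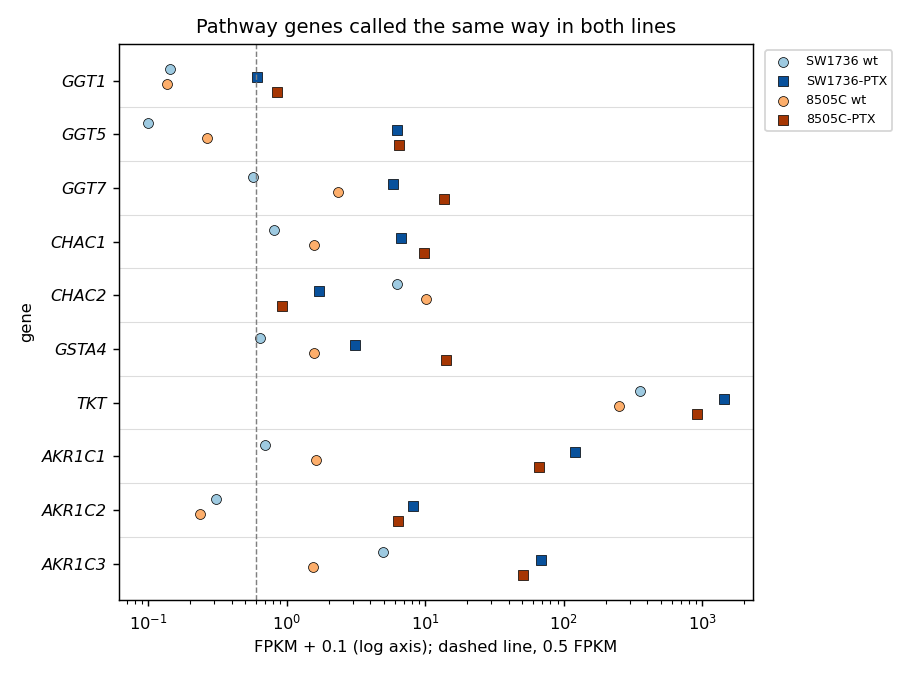
FPKM + 0.1 (log axis) of the 10 pathway genes called in the same direction in both lines, 1 point per library, circles for wt and squares for PTX, no replicates. For 9 genes both squares lie to the right of both circles, as for AKR1C1 (66.0 and 119.5 against 0.597 and 1.52 FPKM), and for CHAC2 to the left.

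Genes of NADPH supply make the reducing power that glutathione reductase and TXNRD1 use. TKT, the transketolase of the pentose phosphate pathway, was at 354 (wt) and 1428 FPKM (PTX) in SW1736 and at 251 (wt) and 913 FPKM (PTX) in 8505C, log2 fold changes of 2.01 and 1.86. ME1, malic enzyme, was called in SW1736 (1.64) but had -0.31 against 8505C wt, and its log2 fold change was 0.53 in 8505C. In each line 2 of 9 genes (22.2%) were up-regulated, beside the 15.7% and 15.0% of all genes, and 0 were down-regulated, and the list's median was 0.61 in SW1736 and 0.80 in 8505C, beside 0.01 and 0.11 for all genes. PGD stayed between 48.2 and 56.5 FPKM in all libraries.

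The glutathione S-transferases other than GSTP1 are a large family, and the difference between the lines in their calls was not tested. Of 13 compared in SW1736, 5 (38.5%) went up and 3 (23.1%) went down, beside 15.7% and 10.2% of all genes. Of 12 compared in 8505C, 2 (16.7%) went up and 0 went down, beside 15.0% and 5.89%. GSTA4, which conjugates lipid aldehydes, was at 0.536, 3.01, 1.48 and 14.0 FPKM in SW1736 wt, SW1736-PTX, 8505C wt and 8505C-PTX. GSTM3 was listed at 0 in SW1736 wt and was at 22.1 FPKM in SW1736-PTX, 13.4 in 8505C wt and 21.3 in 8505C-PTX, whereas GSTM4 had 4.07 FPKM in SW1736 wt and was listed at 0 in the other libraries. MGST1, a microsomal transferase, was at 93.9, 7.18, 20.4 and 30.1 FPKM, a log2 fold change of -3.69 in SW1736 and of -1.497 against 8505C wt, just short of the call. For GSTM3, GSTM4 and GSTO2 (6.04, 0.543, 0.0717 and 0.576 FPKM) the level in SW1736-PTX was nearer to 8505C wt than to SW1736 wt, as it was for PAX8 and NKX2-1. MGST2 (3.70, and 1.29 against 8505C wt), PTGES (3.82) and GSTT2B (1.77) were the other increases in SW1736, and GSTO2 (1.98) was the other in 8505C. The paralogs GSTT2 and GSTT2B, and the members of the GSTM family, may share reads.

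Of the pathway's regulators compared, 23.1% were called in SW1736, beside 25.9% of all genes, and 8.33% in 8505C, beside 20.9%. MAFF, a small MAF protein that pairs with NRF2, was at 17.9 (wt) and 96.6 FPKM (PTX) in SW1736 and at 27.0 (wt) and 23.5 FPKM (PTX) in 8505C, so that it was high in SW1736-PTX alone. Of 13 regulators compared in SW1736 it was the 1 up-regulated (2.42). NFE2L3 (-1.88, and 0.06 against 8505C wt), a relative of NFE2L2, and the repressor BACH2 (-3.49) were down-regulated. BACH2 passed the FPKM limit in SW1736 wt alone (1.67), with 0.0567 for SW1736-PTX, 0 for 8505C wt and 0.00577 for 8505C-PTX. SW1736-PTX was therefore not compared with 8505C wt for BACH2. With a pseudocount of 1 the BACH2 value in SW1736 was -1.335, short of the call. PGAM5, a mitochondrial phosphatase that binds KEAP1, was the 1 of 12 called in 8505C (-1.66). SQSTM1, which encodes the KEAP1-binding autophagy adaptor p62, was at 140, 288, 128 and 285 FPKM, with log2 fold changes of 1.04 and 1.15 that were not called. BACH1, the repressor that displaces NRF2 from its sites, had -0.52 and 0.74, and CUL3 -0.35 and -0.76.

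Thioredoxin, the substrate of TXNRD1, was like its reductase lower in the PTX library of each pair. TXN was at 367 (wt) and 214 FPKM (PTX) in SW1736 and at 301 (wt) and 97.4 FPKM (PTX) in 8505C, and it was called down in 8505C (-1.63, beside -0.77 in SW1736). TXNIP, an inhibitor of thioredoxin, was between 34.1 and 45.1 FPKM in the PTX libraries and lowest in 8505C wt, at 4.85 FPKM, and it was called up in 8505C (3.19) and in SW1736-PTX against 8505C wt (2.79) but at 0.28 against SW1736 wt. Of 17 genes of thioredoxins, peroxiredoxins and glutaredoxins compared in SW1736, 2 were up-regulated (PRDX5, 2.44, and GLRX, 2.61) and 1 down-regulated (GLRX3, -1.86). These were 11.8% and 5.88%, beside 15.7% and 10.2% of all genes. Against 8505C wt these 3 genes fell short of the call, at 1.399, 0.057 and -0.92. Of 18 compared in 8505C, 3 (16.7%) were up-regulated, with SESN2 (1.58) and SESN3 (2.38) beside TXNIP, and 1 (5.56%), TXN, was down-regulated. The shares of all genes there were 15.0% and 5.89%.

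Of the genes for heme and iron, 0 of 9 were called in SW1736, beside 25.9% of all genes. In 8505C 2 of 9 (22.2%) were up-regulated and 1 (11.1%) down-regulated, beside 15.0% and 5.89%. FTH1, the ferritin heavy chain that stores iron, was at 1437 (wt) and 1982 FPKM (PTX) in SW1736 and at 717 (wt) and 2363 FPKM (PTX) in 8505C (log2 fold changes 0.46 and 1.72). BLVRB, which reduces biliverdin downstream of heme oxygenase, was called with it in 8505C (1.71). TFRC, the transferrin receptor that brings iron in, was at 68.7, 28.9, 85.4 and 27.9 FPKM, a log2 fold change of -1.25 in SW1736 and of -1.61 in 8505C, the latter called. Among the glutathione peroxidases other than GPX2, GPX7 was listed at 0 in all libraries but SW1736 wt (0.988 FPKM) and was the 1 call in SW1736 of 5 compared, while 0 of 4 were called in 8505C, GPX3 being the highest (1.43). Of the superoxide dismutases and catalase, SOD3, listed at 0 in both wt libraries and at 0.718 FPKM in SW1736-PTX, was the 1 of 5 called in SW1736, and CCS, the copper chaperone for SOD1, the 1 of 4 called in 8505C (1.71). SOD1 itself was at 292, 115, 235 and 203 FPKM, a log2 fold change of -1.35 in SW1736 that was not called.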

How the data were processed

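The mRNA of both lines, sensitive and resistant, was sequenced as single-end reads of 75 bp, 1 library per condition. According to the paper's methods and the processing notes, the authors used bcl2fastq 2.20, Cutadapt, ERNE, STAR on hg38 and StringTie. The annotation and the strand setting are not given in the sources used here. The deposited tables hold the coverage (mean reads over each base), left unscaled for depth by the authors, the FPKM, which the authors' StringTie scaled for length and depth, and the TPM, deposited with the same total in each library. No read counts are in the tables used, so no count model was run.

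FPKM rows of a gene name were summed, and genes with FPKM above 0.5 in at least 1 library of a pair were compared on log2(FPKM + 0.1), a change beyond 1.5 in either direction being called. Both limits are those of the paper's methods. The depth is the median ratio of coverage to FPKM. Exon numbers and transcript lengths came from GENCODE release 44. Promoters came from RefSeq. The members, the pathway lists and the alternatives were chosen with earlier results of these data known. Named pathway genes are those called the same way in both lines and the highest and lowest of each list in each line. Other names were chosen after their values were seen, except the members. Alternatives changed the pseudocount, the FPKM limit, the unit, the centring, the rows used, the threshold and the reference of SW1736-PTX. PTX against wt over both lines was fitted in limma on log2(FPKM + 0.1) with the cell line as a block, a fit added after the values were seen. The calling step and this fit were tested on simulated data. Python 3.11.15, NumPy 2.4.6, pandas 2.3.3, SciPy 1.17.1, matplotlib 3.10.9, R 4.3.3 and limma 3.58.1 were used. Some genes of the lists are counted but not reported by name here.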

Additional observations from a re-analysis of the deposited data

Results flagged for a closer look

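Of the members and the pathway genes printed here, 12 that were above 0 in all libraries had log2 fold changes of opposite sign in the lines, each from 1 library per condition, and the difference was not tested. Given as SW1736 minus 8505C, the difference was -5.23 for GSTO2 (-3.26 in SW1736 and 1.98 in 8505C), which was called in both lines, and -4.24 for MGST1 (-3.69 and 0.55), 2.79 for GLRX (2.61 and -0.18) and 2.62 for MAFF (2.42 and -0.20), called in SW1736. It was -2.58 for EPHX1 (-0.37 and 2.21) and -2.21 for BLVRB (-0.50 and 1.71), called in 8505C. Neither value was called for BACH1 (-1.26), SLC7A11 (0.99), TALDO1 (-0.91), GSR (0.89), the member GCLC (-0.20) and PGD (0.18).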

How the results depend on the processing

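The labels carry no shared replicate numbers, and the fit with the cell line as a block, added after the values were seen, is given above. In the PTX against wt, wt against wt and PTX against PTX comparisons, the count of members called was 0 in each direction under every alternative but a threshold of 1, under which 1 member was called down in 8505C (GCLM), 2 were lower in 8505C wt than in SW1736 wt (KEAP1 and HMOX1, both -1.12) and 1 was higher in SW1736-PTX than in 8505C-PTX (GCLM). For SW1736-PTX against 8505C wt no other setting was run than that threshold, which 1 member passed (HMOX1, 1.19). That threshold also gave 32 pathway genes up and 10 down in 8505C, and a threshold of 2 gave 12 and 1. With FPKM above 0.5 in both libraries, which leaves fewer genes, SW1736 had 12 increases and 8 decreases among pathway genes, and with 8505C wt in place of SW1736 wt 3 genes were down-regulated. Setting the median of all genes to 0 lowered the values in 8505C by 0.11 and turned the sign of GCLC there to -0.01, and that of GSTP1 between the wt lines from -0.06 to 0.03. Of the pathway genes and members printed, 14 values fell short of the call with a pseudocount of 1, among them GGT1 in both lines (0.53 and 0.76). With 8505C wt as reference, 9 calls in SW1736-PTX were lost with no turn of sign, 4 were gained (GPX3, TXNIP, TFRC and EPHX1), and 4 values turned: NFE2L3 to 0.061, ME1 to -0.31, GSTO2 to 1.90 and ABCC3 to 2.69, the last resting on the 0.1 FPKM added since 8505C wt is listed at 0.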
